A study of Homo sapiens with 16 samples.

Results

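The subject is how the transcript profile of HT1080 cells, a human fibrosarcoma line, moved between 3 h and 12 h of exposure to cisplatin. Cells received cisplatin at 25 µM in complete growth medium, and 2 arrays each were taken at 12 h, at 3 h and, as the step between, at 6 h. Of the 24350 probes named by GI sequence numbers on the single-colour bead array, 8160 were described here: those with a detection score of at least 0.99 on both arrays of 12 h or of 3 h. Of these, 6909 were detected on all 4 arrays of 12 h and 3 h. A further 632 were detected on both arrays of 12 h but not on both of 3 h, and 619 on both of 3 h but not on both of 12 h. For comparison, the same probes were read on arrays of cells given A0, a thioxotriazole copper(II) complex, at 25 µM, with 2 arrays each at 12 h and 3 h. They were read in a fit over all 14 arrays of cells given either drug, which include 2 arrays each of A0 at 1 h and 6 h. No control array entered the main fits, and only an alternative over all 16 arrays took in the 2 controls. Every change is thus one between cells that had received the same drug. Hours in culture cannot be told apart from hours of drug. The whole series has 16 arrays, and nothing in the labels says that the arrays of 1 group stem from different cultures, so the tests rest on a spread between arrays that may be technical.

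Cisplatin is a platinum compound that enters the cell, exchanges its chloride ligands for water and binds purine bases, mostly joining neighbouring guanines of 1 strand. Such adducts stall RNA and DNA polymerases, and nucleotide excision repair and the p53 pathway are the best known responses to them. Transcript levels then follow from new synthesis and from the decay of transcripts already made, and an array of total RNA does not separate these. A bead array reads each transcript as the mean brightness of beads that carry 1 probe sequence. The files used here do not pair the GI numbers with genes and only 4 probes are named below, by probe ID, without a gene name or a role. For the same reason the line was not checked against marker genes.

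Between 7737 and 9079 probes were detected per cisplatin array, the median signal ran from 99.7 to 115.9 and the median number of beads per probe was 41 to 42. Arrays of 1 group correlated at 0.964 (12 h), 0.978 (6 h) and 0.964 (3 h) across the 8160 probes, while 12 h arrays correlated with 3 h arrays at 0.914 to 0.947 (probes are not independent replicates). The first principal component of the 6 arrays held 50.1% of the variance and placed them in the order of time, at -31.6 and -18.8 for 3 h, -7.01 and 6.43 for 6 h, and 26.6 and 24.4 for 12 h. The second held 21.3% and set replicate 1 of 12 h and of 3 h (18.0 and 12.7) against replicate 2 of the same times (-17.4 and -19.1), with the 6 h arrays at 3.84 and 1.93. The same replicates differed in the number of probes detected, with 7853 on replicate 1 and 9079 on replicate 2 of 12 h, against 7737 and 8974 on those of 3 h. With the replicate number as a block in the fit, 938 probes were called for 12 h against 3 h, against 641 in the fit without it, which is described below.

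Between 3 h and 12 h of cisplatin, more probes passed the test as lower than as higher, and the median called fall was larger than the median called rise. With limma's moderated test at a Benjamini-Hochberg adjusted p of 0.05, 641 of the 8160 probes differed between the times (7.86%), 248 of them higher at 12 h (3.04%) and 393 lower (4.82%). The median rise among the called probes was 2.17-fold, with log2 changes from 0.85 to 2.28, and the median fall was 2.48-fold as measured. For the 157 called rises detected on all 4 arrays the median was 2.14-fold. For the 233 called falls detected on all 4 arrays it was 2.35-fold, with log2 changes from -3.19 to -0.85. The other 91 rises and 160 falls passed the filter only through the time at which they were bright, which favours a difference in them. The lowest measured change of a called fall, -3.42, belonged to a probe detected on 1 of its 2 arrays of 12 h. At least 4-fold changes as measured numbered 3 among the called rises and 30 among the called falls, including probes not detected on all 4 arrays. In all tested probes, called or not, 224 were at least 2-fold higher at 12 h and 401 at least 2-fold lower. The probe with the largest measured rise of all, 2.51 on the log2 scale, did not pass the test. In RNA of a whole culture, a change in the mix of cells and a change of RNA per cell cannot be told apart.

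The excess of falls was one among the larger changes, and was not seen in the number of normalised probes on either side. The median log2 change over the 8160 probes was 0.03, with the middle 50% between -0.31 and 0.35. Both 12 h arrays lay above both 3 h arrays for 2277 probes (27.9%) and below them for 1928 (23.6%). Quantile normalisation gives all arrays the same distribution of signals, so this balance is set in part by the scaling. The median log2 change was 0.06 with 75th percentile centring and -0.04 with the authors' deposited processed values. Called falls outnumbered called rises in all 19 alternatives run for this comparison, with rises making up 23.4% to 46% of the calls, against 38.7% in the fit reported here. With the authors' deposited processed values the split was 142 higher and 389 lower. The number of calls moved when 1 array was left out, which also leaves fewer arrays to estimate the spread from. Leaving out replicate 1 gave 200 calls at 3 h and 235 at 12 h, leaving out either 6 h array gave 335, and leaving out replicate 2 gave 692 at 3 h and 479 at 12 h.

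**Figure D1:**
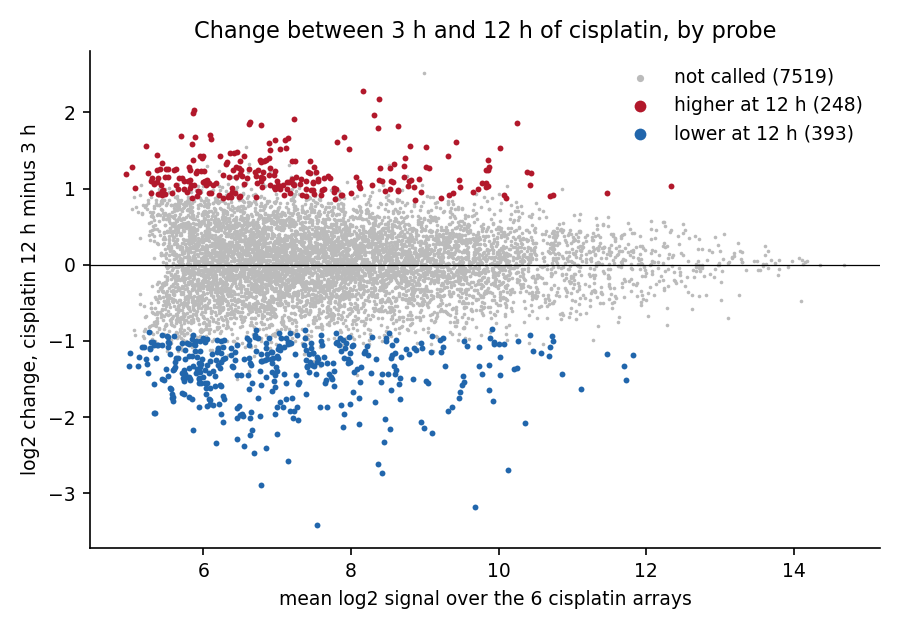
Each point is 1 of the 8160 tested probes, with its mean normalised log2 signal over the 6 cisplatin arrays on the horizontal axis and its log2 change (12 h minus 3 h) on the vertical axis. The 248 probes called higher reach 2.28 and the 393 called lower reach -3.19 among those detected on all 4 arrays. The lowest point, at -3.42, was detected on 1 of 2 arrays of 12 h, and 1 grey point at 2.51 was not called.

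Of the 157 called rises detected on all 4 arrays of 12 h and 3 h, the largest were GI_24475878-S and GI_22538445-A. The normalised log2 signal of GI_24475878-S was 7.50 and 6.77 at 3 h, then 7.89 and 7.97 at 6 h, followed by 9.40 and 9.43 at 12 h. After normalisation the 12 h arrays lay well above all others and close to each other, whereas the 3 h arrays differed more. Its mean was 9.41 ± 0.02 at 12 h and 7.13 ± 0.52 at 3 h (SD, n = 2 arrays each), a 4.86-fold rise (log2 change 2.28, SE 0.28, limma adjusted p = 0.00308). As deposited, before any correction, its bead intensity was 619.2 and 976.7 at 12 h and 205.4 and 225.6 at 3 h, so the groups were also apart on the scanner's own scale. On that scale the 12 h arrays differed more than the 3 h arrays, so which pair lay closer depends on the processing.

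The log2 signal of GI_22538445-A, a probe whose suffix A marks all transcript variants of a gene, was 7.70 and 7.30 at 3 h, then 8.0 and 7.89 at 6 h, followed by 9.59 and 9.77 at 12 h. Both 6 h arrays lay above both 3 h arrays, and both 12 h arrays stood clear above all of these. It averaged 9.68 ± 0.13 at 12 h and 7.50 ± 0.28 at 3 h (SD, n = 2 arrays each), a 4.51-fold rise (log2 change 2.17, SE 0.25, limma adjusted p = 0.00308). For this probe the step from 6 h to 12 h passed the test by itself (log2 change 1.73, limma adjusted p = 0.033), while the step from 3 h to 6 h was 0.44 (adjusted p = 0.632). The same steps of GI_24475878-S were 1.48 (adjusted p = 0.0642) and 0.80 (adjusted p = 0.396), and neither passed.

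Of the 233 called falls detected on all 4 arrays, the largest were GI_4504436-S and GI_7662125-S. GI_4504436-S had log2 signals of 11.51 and 11.06 at 3 h, then 10.33 and 9.02 at 6 h, followed by 8.64 and 7.55 at 12 h. After normalisation replicate 2 was the lower at each time, and the 6 arrays of the 3 times did not overlap. It averaged 8.10 ± 0.77 at 12 h and 11.28 ± 0.32 at 3 h (SD, n = 2 arrays each), a 9.11-fold fall (log2 change -3.19, SE 0.43, limma adjusted p = 0.00327). On the scanner's scale it read 402.6 and 327.3 at 12 h, against 2131.1 and 2837.6 at 3 h, where replicate 2 was the higher.

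GI_7662125-S had log2 signals of 9.99 and 9.52 at 3 h, then 8.68 and 8.29 at 6 h, followed by 7.23 and 6.81 at 12 h. Its mean of 7.02 ± 0.30 at 12 h was 6.66-fold below that of 9.75 ± 0.33 at 3 h (SD, n = 2 arrays each; log2 change -2.73, SE 0.28, limma adjusted p = 0.00217). Both steps had much the same size for this probe, at -1.27 from 3 h to 6 h (adjusted p = 0.223) and -1.46 from 6 h to 12 h (adjusted p = 0.0678). Without background correction its change over the whole course was -2.15. The calls of all 4 probes for 12 h against 3 h held with each of the 6 arrays left out in turn.

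**Figure D2:**
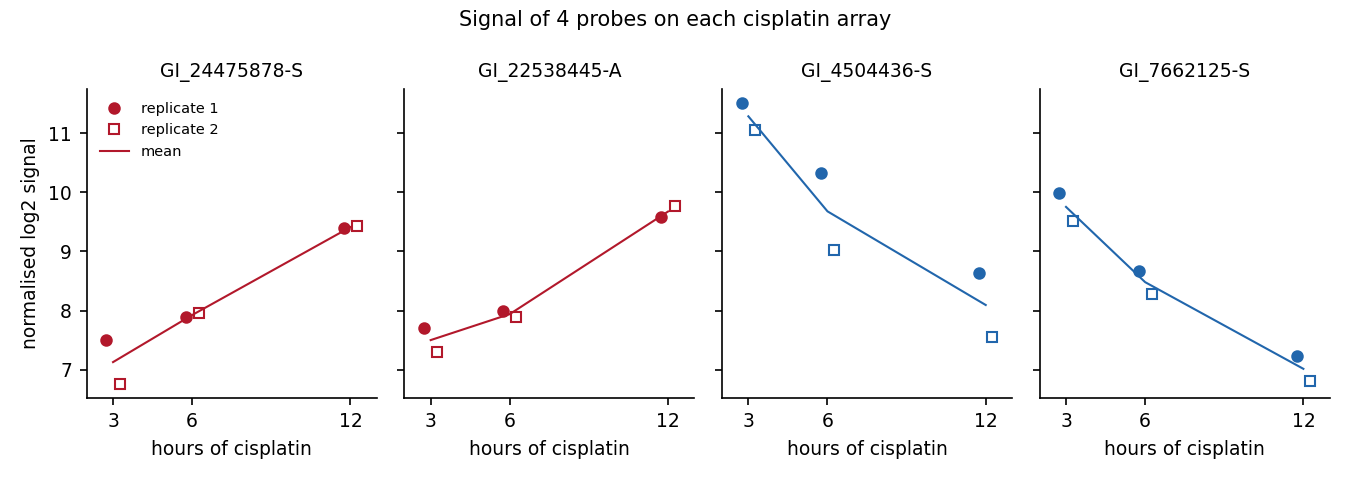
Normalised log2 signal of the 4 named probes on each of the 6 cisplatin arrays against hours of cisplatin, with filled circles for replicate 1, open squares for replicate 2 and a line through the means. The 2 probes on the left are highest on the 12 h arrays (9.40 and 9.43 for GI_24475878-S), and the 2 on the right are lowest there (7.23 and 6.81 for GI_7662125-S).

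The 6 h arrays give the level between the other times. Neither step of the course gave many calls by itself. At 6 h 0 probes differed from 3 h in limma's test, with 773 at an unadjusted p under 0.05, where 408 of 8160 unchanged probes would reach it. Set against 6 h, 3 probes were higher at 12 h (0.0368%) and 3 lower (0.0368%), 0.0735% of those tested, with 819 at an unadjusted p under 0.05, and all 6 were also called in the same direction between 3 h and 12 h. The adjusted p-values of both steps depend on the estimate of spread. With a trended and robust variance on the values of the main fit, the first and the second step gave 1 and 48 calls. With normalisation and spread both taken over the 14 treated arrays they gave 5 and 54, and over all 16 arrays 14 and 79. The low counts therefore do not show that little changed within either step. Without cisplatin 3 h replicate 2 the first step gave 8 calls, and the second gave 34 without either 3 h array and 0 without any 1 of the 6 h or 12 h arrays.

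For most called probes the 6 h level lay between the other times. It was between the 3 h and the 12 h mean for 238 of the 248 rises (96%) and for 376 of the 393 falls (95.7%), against 54.4% of all tested probes. Among the rises, 7 lay below the 3 h mean and 3 above the 12 h mean, and among the falls 6 lay above the 3 h mean and 11 below the 12 h mean. All 6 arrays were in the order of time, without overlap, for 156 rises (62.9%) and 230 falls (58.5%), against 10.8% of all tested probes. These shares follow in part from the choice of the probes, which picks those whose 3 h and 12 h levels lie far apart.

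Measured as the share of the log2 change already reached at 6 h, the median was 51.6% for the rises, with the middle 50% of probes from 34.2% to 66.7%, and 41.5% for the falls, from 27.3% to 56.6%. The 6 h arrays differed here by more than the directions did. With 6 h replicate 1 alone the medians were 43.6% and 31.2%, and with replicate 2 alone 61.4% and 50.4%, so neither an early nor a late course is set apart by these medians. A contrast of the 6 h mean with the average of 3 h and 12 h has an estimate whose error is not tied to that of 12 h minus 3 h. The contrast passed limma's test at 0 of the 8160 probes, with 340 at an unadjusted p under 0.05, among them 23 of the rises and 48 of the falls. Its p-values use the same estimate of spread as the calls, which favour probes of small spread. The counts among called probes are therefore not free of the choice. Of the 393 falls, 264 lay above the middle of their log2 change at 6 h and 129 below it, with a median distance of 0.12. Of the 248 rises, 130 lay above and 118 below, with a median of 0.02. Over the 8157 tested probes whose 3 h and 12 h means differed, 4278 lay above and 3879 below, with a median of 0.01. Since the 6 h arrays differed as given above, no late course of the falls is read from these counts.

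**Figure D3:**
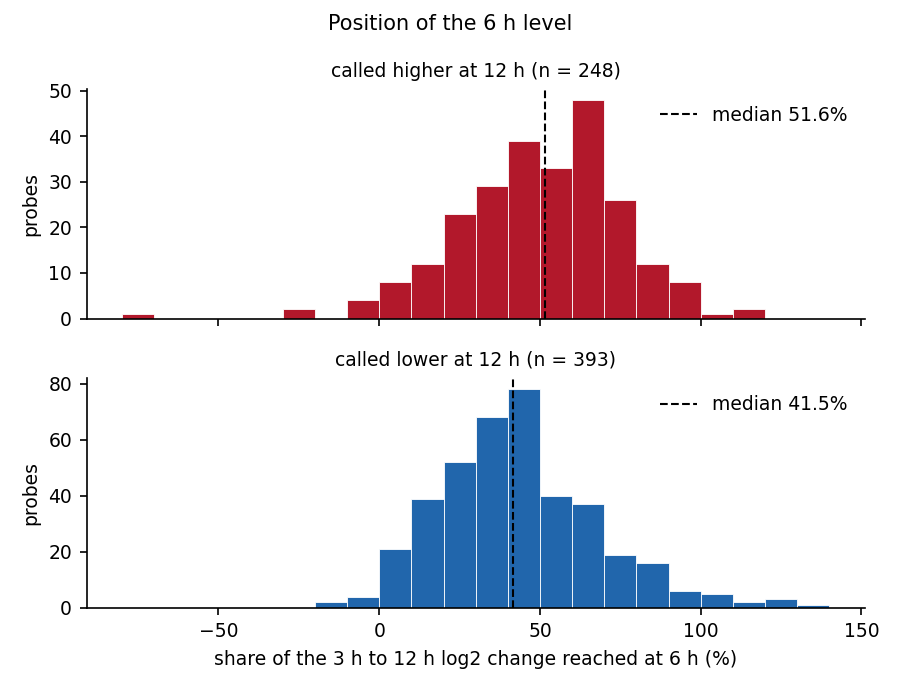
Number of called probes in bins of 10% by the share of their log2 change from 3 h to 12 h that was reached at 6 h, for the 248 rises above and the 393 falls below. Dashed lines mark the medians of 51.6% and 41.5%, and most probes of both panels lie between 0% and 100%.

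Some probes were detected on both arrays of 1 time and on neither array of the other. Replicates of 1 time also differed in the number of probes detected, so a crossing of the limit was not shown for those not called. Detected on both 12 h arrays and on neither 3 h array were 141 probes, of which 44 were called higher, against 3.04% of all tested probes. Detected on both 3 h arrays and on neither 12 h array were 163, of which 73 were called lower, against 4.82% of all tested probes. Such a probe has only a bound on its dim side, set on each dim array at its own signal or, if that is higher, at the faintest signal of any detected probe there. By this bound the 44 rises were at least 1.5-fold at the median, the largest at least 2.94-fold. The 73 falls were at least 1.71-fold at the median, the largest at least 3.36-fold. The filter and the test had picked these probes on the same values, which favours a bound above 1. The bounds are thus no independent measure of size. At 6 h, 51 of the 141 probes were detected on both arrays, 56 on 1 and 34 on neither. Of the 163 probes, 72 were detected on both 6 h arrays, 57 on 1 and 34 on neither. The 632 and 619 probes detected on both arrays of 1 time but not of the other mostly had 1 detected array there too (491 and 456). All had passed the filter through the time at which they were bright. The 91 called rises among the 632 and the 160 called falls among the 619 are thus no independent evidence of direction or size.

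How often probes were called by brightness depended on the filter. Of the 1251 probes detected on both arrays of 1 time but not of the other, most of them dim, 20.1% were called. Of the 6909 detected on all 4 arrays, 5.64% were called. The 1251 probes passed through the time at which they were bright, so the filter itself favours a difference in them. In the dimmest 25% of all tested probes by mean signal, 4.41% were called higher and 6.91% lower, and in the brightest 25% 1.86% and 2.89%. Among probes detected on all 4 arrays the same brightness groups gave 9 rises and 8 falls of 852 in the dimmest, 61 and 80 of 1979 in the second, 49 and 86 of 2039 in the third and 38 and 59 of 2039 in the brightest. This second count leaves out dim probes whose signal lay under the detection limit on any of the 4 arrays, so no order by brightness is read from either count. The median spread between replicates was 0.31 on the log2 scale among the dimmest 25% and 0.20 among the brightest.

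**Figure D4:**
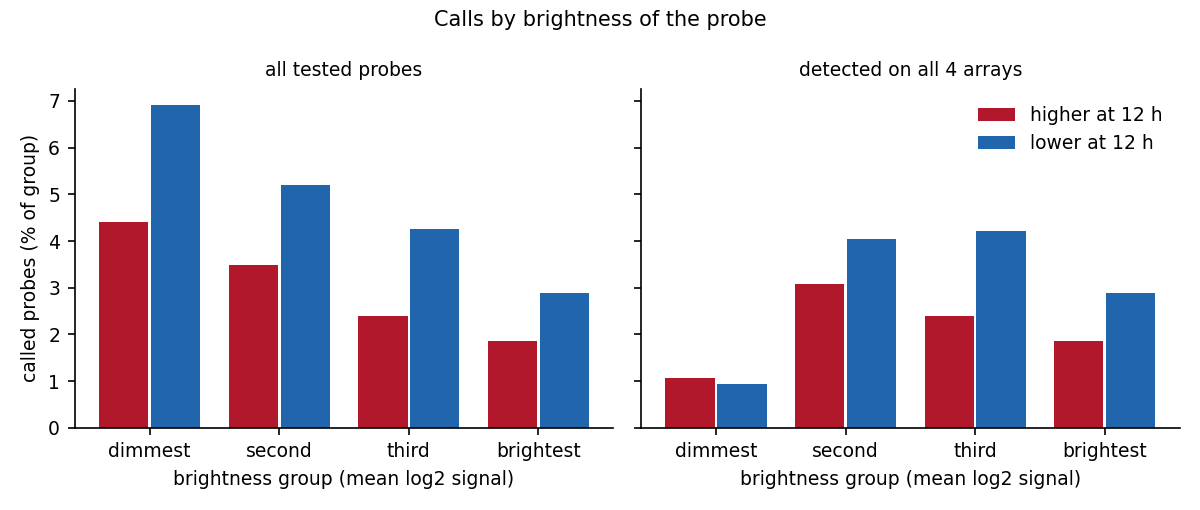
Share of probes called higher or lower at 12 h than at 3 h in 4 brightness groups by mean log2 signal, for all 8160 tested probes (left, 2040 a group) and for the 6909 detected on all 4 arrays (right). In the dimmest group 6.91% of all tested probes were called lower, against 0.939% of those detected on all 4 arrays.

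The suffix of a probe's name says which transcripts it reads. Of the 6751 tested probes for genes with a single transcript (suffix S), 7.79% were called, 209 higher and 317 lower. Of the 977 probes for all variants of a gene (suffix A), 8.19% were called, 29 higher and 51 lower. Of the 432 probes for 1 of several variants (suffix I), 8.10% were called, 10 higher and 25 lower. All 3 shares were near the 7.86% of the whole set.

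The change over these hours was set against that with A0, given at the same dose and sampled at the same times, on the same 8160 probes. The A0 arrays of 12 h and 3 h share no array with the cisplatin ones, and all 14 treated arrays were normalised together. With A0, 502 of the probes changed between these times (6.15%), 174 of them upward (2.13%) and 328 downward (4.02%). Across the 8160 probes, which are not independent replicates, the log2 changes with the 2 drugs correlated at 0.196.

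Most of the falls with cisplatin also had a negative change with A0, of a smaller size. The median log2 change of the 393 probes was -1.29 with cisplatin, on which they were chosen, and -0.33 with A0, where the median of all tested probes was -0.03. With A0, 286 of them (72.8%) had a negative change, against 53.3% of all tested, and 35 were called lower (8.91%) and 4 higher (1.02%). The 248 rises had a median log2 change of 1.11 with cisplatin and 0.02 with A0, where 129 of them (52%) had a positive change, against 46.7% of all tested. With A0, 11 of these were called higher (4.44%) and 7 lower (2.82%). The sign of the median of the rises is not settled, since it was -0.03 without A0 3 h replicate 1. With 75th percentile centring in place of quantile normalisation the A0 medians were 0.20 for the rises and -0.17 for the falls, where that of all tested probes was 0.11.

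The difference between the drugs' changes was tested directly as the interaction of drug and time. It passed limma's test at 389 probes (4.77%), with the change above that of A0 at 215 (2.63%) and below it at 174 (2.13%). No majority direction is given, because the split was 140 and 168 when arrays were centred on their 75th percentile, a scaling that shifted the median difference over all probes by -0.12, and 158 and 226 with the deposited processed values, which moved it by -0.17. At the 215 probes, chosen by these values, the median log2 change was 0.73 with cisplatin and -0.80 with A0, and 99 of them were called lower with A0. At the 174 probes the medians were -1.23 with cisplatin and 0.41 with A0, and 47 were called higher with A0. The count of 389 moved when 1 array was left out, and it was 464 without either A0 6 h array. Among A0 arrays, the 3 h replicates 1 and 2 gave 174 and 131 in this way and the 12 h replicate 2 gave 191. Among cisplatin arrays, the 12 h replicate 1 gave 194 and the 3 h replicates 1 and 2 gave 208 and 237.

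Each of the 4 named probes was among the 389. Since they were picked for a large change with cisplatin, their values with A0 are the part the choice did not use. GI_24475878-S had log2 signals of 9.36 and 9.40 with cisplatin at 12 h and 7.44 and 6.71 at 3 h, against 6.43 and 5.23 with A0 at 12 h and 7.03 and 6.68 at 3 h. Both 12 h arrays lay above the 3 h arrays with cisplatin and below them with A0, and 1 of the 2 A0 12 h arrays did not detect it (interaction 3.32, SE 0.52, limma adjusted p = 0.006). With A0 alone the change was -1.02 (adjusted p = 0.112). GI_22538445-A had 9.56 and 9.74 at 12 h and 7.64 and 7.24 at 3 h with cisplatin, against 7.45 and 7.19 at 12 h and 7.48 and 7.44 at 3 h with A0, where its change was -0.14 (adjusted p = 0.724; interaction 2.35, adjusted p = 0.00369).

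GI_4504436-S had 8.58 and 7.49 at 12 h and 11.53 and 11.07 at 3 h with cisplatin, against 12.84 and 13.37 at 12 h and 12.69 and 12.87 at 3 h with A0. Both A0 times lay above the highest cisplatin array, and the A0 change was 0.32 (limma adjusted p = 0.702; interaction -3.59, adjusted p = 0.00911). GI_7662125-S had 7.17 and 6.75 at 12 h and 9.97 and 9.50 at 3 h with cisplatin, against 9.07 and 8.93 at 12 h and 9.36 and 9.87 at 3 h with A0. Its change with A0 was -0.62 (adjusted p = 0.154; interaction -2.16, adjusted p = 0.00726), so both drugs' 12 h arrays lay below their 3 h arrays, and those of cisplatin lay lower.

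**Figure D5:**
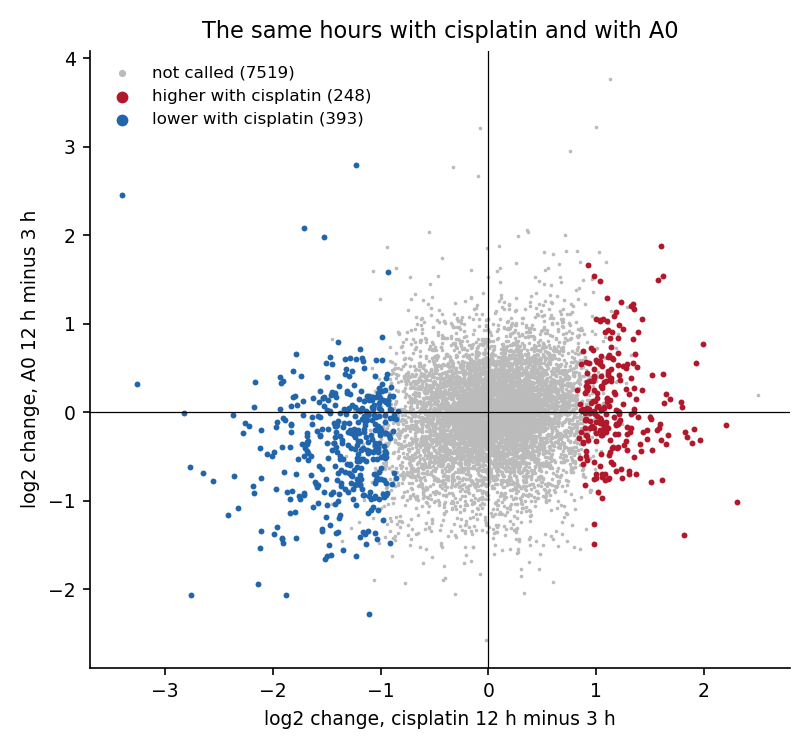
Log2 change between 3 h and 12 h with cisplatin (horizontal axis) and with A0 (vertical axis) for the 8160 tested probes, from 1 fit over the 14 treated arrays, coloured by the call with cisplatin. The 248 rises centre on 0.02 with A0 and the 393 falls on -0.33.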

How the data were processed

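Per the file headers, each deposited array file holds a mean bead intensity per probe, linear and not normalised between arrays, a bead SD (not used), a bead count and a detection score given as a fraction from 0 to 1. The submitters' processing notes name BeadStudio 1.5.1.3. The authors also deposited a table of processed intensity, linear and with values under 0. Its normalisation is not stated in any source used, and it served as an alternative.

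The 6 cisplatin arrays went through neqc of limma 3.58.1 in R 4.3.3 (background from the detection scores, offset 16, quantile normalisation, log2). One linear model gave each time its mean (3 residual and 8.46 prior degrees of freedom). The interaction with A0 used a fit over the 14 treated arrays (7 and 6.19). Adjusted p-values cover all 8160 probes. The number of arrays limits the precision. The members and lists were chosen with earlier results of these data known. The rule for named probes took the 2 largest rises and 2 largest falls among called probes detected on all 4 arrays without overlap. Gene lists and cell markers fixed for this work could not be used, since 0 probes were matched to genes. The files name no slide, so no batch was tested. Alternatives covered background, scaling, filter, arrays in the fit, variance model, array weights, fold, a block for the replicate number and leaving out each array.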

Additional observations from a re-analysis of the deposited data

Results flagged for a closer look

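The change from 3 h to 12 h differed between cisplatin and A0 by a direct test at 389 probes. Among them, cisplatin minus A0 was 3.32 on the log2 scale for GI_24475878-S, 2.35 for GI_22538445-A, -3.59 for GI_4504436-S and -2.16 for GI_7662125-S, each in limma's fit over 14 arrays. These 4 were picked for a large change with cisplatin, which is part of the difference, and GI_24475878-S was detected on 1 of the 2 A0 12 h arrays, so its size rests in part on a signal under the detection threshold. No group has more than 2 arrays, so a single array far from its group was not looked for.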

How the results depend on the processing

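The calls of the 4 named probes for 12 h against 3 h kept their direction under all 18 alternatives and their side of the threshold under all but 1: GI_4504436-S had a limma adjusted p of 0.0581 with no filter. Their interaction calls held under all 24. The 641 calls between 12 h and 3 h became 77 with no filter, where 24350 probes were tested, 396 with detection on all arrays of both groups, 349 with only the 4 arrays of 12 h and 3 h, 416 with array weights, 896 over all 16 arrays, 794 over the 14 treated arrays, 732 with a trended and robust variance and from 200 to 692 with 1 array left out. A group left with 1 array is assumed to vary like the others. For 12 h against 6 h, 6 calls became 12 without background correction, 0 with 75th percentile centring or no filter, 13 with the deposited processed values, 79 and 54 over 16 and 14 arrays, 48 with a trended and robust variance, 27 with array weights, and 0 to 34 without 1 array. For 6 h against 3 h, 0 calls became 1 without background correction or with a trended and robust variance, 14 and 5 over 16 and 14 arrays, and 0 to 8 without 1 array. The contrast of 6 h with the average of 3 h and 12 h stayed at 0 except for 1 call without 1 array. The interaction count of 389 became 239 with no filter, 242 with array weights and 131 to 464 without 1 array. The median share reached at 6 h was 44.3% over all called probes and 40.4% to 45.8% under 4 alternatives. It moved more with the 6 h array used, to 36.3% with replicate 1 alone and 54.2% with replicate 2 alone. With 1 array left out, the median A0 change of the rises ran from -0.0335 (A0 3 h replicate 1) to 0.0875 (A0 3 h replicate 2). The cause of these movements was not tested beyond the smaller number of arrays or probes.

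Replicate numbers were shared by the groups, but with 2 numbers they are not shown to pair the arrays. The differences of replicate 1 minus 2 correlated across probes at 0.362 between 12 h and 3 h, 0.145 between 6 h and 3 h and 0.0202 between 12 h and 6 h. With the replicate number as a block, the 4 named probes kept their calls, and 938 probes were called for 12 h against 3 h, 60 for 12 h against 6 h and 594 for the interaction, and 0 for 6 h against 3 h or against the average of both. Dim probes limit what can be read, since the replicate spread was 0.31 among the dimmest 25%. The split of the calls by detection on all 4 arrays was chosen after seeing the data, as were the settings for the A0 medians.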
